A study of Mus musculus with 1931 samples.

Results

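The genes described here encode 5 bone morphogenetic protein (BMP) ligands, Bmp2, Bmp4, Bmp7, Bmp8a and Bmp8b, and 4 of their receptors. Bmpr1a and Acvr1 are type I receptors, and Bmpr2 and Acvr2a are type II receptors. They were chosen by name, as 9 of the 20999 genes in the table, and all 9 were measured in every cell. RNA of single mouse cells was sequenced with the SMART-seq2 protocol from RtL-embryoids, which are 3D aggregates assembled from 3 embryonic stem cell (ESC) lines. These were Kermit ESCs, which carry an Oct3/4-GFP reporter, 5-Factor ESCs with doxycycline-inducible Cdx2, Tfap2c, Eomes, Gata3 and Ets2, and mCherry-marked iGATA6 ESCs with a lentiviral, doxycycline-inducible Gata6. After a first day in ESC medium, the aggregates were cultured in reconstructed embryo medium. The first 2D group was Kermit ESCs kept in serum with 2i/LIF. Induced trophoblast stem cells (iTSC) were made from 5-Factor ESCs in trophoblast stem cell medium with FGF4 and heparin. Induced extraembryonic endoderm cells (iXEN) were made from iGATA6 ESCs in XEN medium. Doxycycline at 2 µg/ml was given to the aggregates, the iTSC and the iXEN and then withdrawn before collection, and the ESC culture received none according to the methods. Correctly assembled aggregates were picked by hand, pooled and sorted onto plates 3, 4 and 5, so the plates were technical splits of 1 pool, and each 2D group was 1 culture with no replicate. According to the methods, cells were sorted by GFP for the epiblast part, mCherry for the visceral endoderm part and CD40 for the extraembryonic ectoderm part, and the cultures by the same marks.

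Wells with fewer than 2500 expressed genes were dropped, which left 1406 of 1931 wells in all and at least 97 cells of each block on each 3D plate. The labels give the well of each 3D cell and not its cell type, so the cells were split by well column. Columns 1 to 8, 9 to 16 and 17 to 24 are called epiblast-like (Epi-like), visceral endoderm-like (VE-like) and extraembryonic ectoderm-like (ExE-like) because all 8 epiblast, all 8 visceral endoderm and all 8 extraembryonic ectoderm markers were highest among the 3D blocks in the respective columns. The marker list with the most detected genes was the epiblast list in every Epi-like cell and the visceral endoderm list in 98.7% of VE-like cells. In the ExE-like columns it was the extraembryonic ectoderm list in 58.6% of cells, the epiblast list in 13.6%, the visceral endoderm list in 8.5%, with ties in the rest. In the cultures it was the epiblast list in every ESC, the visceral endoderm list in every iXEN cell and the extraembryonic ectoderm list in 78.7% of iTSC. Median expressed genes per cell ranged from 4823 to 5396 in the 3D blocks and from 8537 to 9093.5 in the cultures, and plate 3 was the deepest of the 3D plates. Read depth itself is not kept in these values, and a share of cells with a gene therefore follows depth as well as expression. Culture format, medium, plate and depth cannot be told apart between 3D and 2D cells.

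BMPs are secreted growth factors of the TGF-β family. A ligand dimer brings type II receptors together with type I receptors, which then phosphorylate the transcription factors Smad1, Smad5 and Smad9 and switch on genes such as those of the Id family. In the early mouse embryo, Bmp4 and Bmp8b are known from the extraembryonic ectoderm and Bmp2 from the visceral endoderm, and signals from these tissues act on the adjacent epiblast, where they are needed for primordial germ cells.

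Bmp8a and Bmp8b are close copies, and their sequences are shown because reads of 75 bases from one can match the other. In GRCm38, Bmp8b lies at chr4:123105165-123132099 on the plus strand and Bmp8a at chr4:123312645-123343252 on the minus strand, with 180545 bases between them. The coding sequences of the reference transcripts, 1236 and 1197 bases long, were identical at 87.97% of 1197 aligned positions. Of the aligned coding windows of 75 bases, 93 (13.7%) were the same in both genes. The first window below lies in exon 2 of both genes, at chr4:123325214-123325288 in Bmp8a and chr4:123114568-123114642 in Bmp8b, and it holds no difference. The second lies in exon 7, at chr4:123313300-123313374 and chr4:123124430-123124504, and it holds 20 differences, the most of any counted window, which are printed in capitals. All are GRCm38 reference sequence in the direction of transcription.
Bmp8a, identical window: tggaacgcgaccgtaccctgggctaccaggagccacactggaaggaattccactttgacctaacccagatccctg
Bmp8b, identical window: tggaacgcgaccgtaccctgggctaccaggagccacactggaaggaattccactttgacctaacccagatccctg
Bmp8a, most different window: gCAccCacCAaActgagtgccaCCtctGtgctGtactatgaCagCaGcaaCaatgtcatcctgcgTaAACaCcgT
Bmp8b, most different window: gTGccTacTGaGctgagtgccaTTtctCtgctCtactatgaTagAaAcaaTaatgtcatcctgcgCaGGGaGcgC
Words of 31 bases, the unit in which the authors' pseudoaligner kallisto by default compares reads with transcripts, were shared between Bmp8a and Bmp8b, making up 22.2% of the coding words of Bmp8a and 23% of those of Bmp8b. No other pair of the 9 genes shared a single word. The split between these 2 genes is therefore an estimate in every cell. The unclassified transcript Gm17244, which lies opposite Bmp8b on the other strand, shared words with both of them, in a number greater than the pair shared for Bmp8b, and Ppie shared words with Bmp8b. In all, 10.6% of the words of the Bmp8b transcripts and 9.24% of those of Bmp8a occurred in genes outside the 9. Acvr2a lies opposite Orc4 and shared 7.32% of its words with it, and the library type does not keep the strand.

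Levels below are averages across every cell of a group, cells at 0 counted, in transcripts per 10,000 (TP10k), which is the deposited TPM rescaled within each cell. TP10k is corrected for transcript length, so levels of different genes can be set side by side. A gene was called found in a cell where its value was above 0, and each share of cells has an exact Clopper-Pearson 95% interval that covers counting error only.

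Bmp4 was the most abundant of the 5 ligands in the Epi-like and ExE-like columns, though not in the VE-like columns. Among the 3D blocks it was highest in the ExE-like columns. Its mean level there was 0.943 TP10k, with 0.744 on plate 3, 1.07 on plate 4 and 1.02 on plate 5. It was found in 30.3% of cells (interval 25.6 to 35.4%), and the plate shares lay between 29.5 and 30.8%. The Epi-like columns had a mean of 0.210 TP10k, with 0.232, 0.283 and 0.115 on plates 3, 4 and 5, and the gene was found in 35 cells (11.2%, interval 7.89 to 15.2%). In the VE-like columns the mean was 0.0319 TP10k, with 0.0745, 0.00572 and 0.0120 on the plates, and Bmp4 was found in 8 cells (2.54%). Without the 4 VE-like cells that other marker lists led or tied, it was 0.0168 TP10k. All 3 plate means of the ExE-like columns lay above all those of the Epi-like columns, which in turn lay above all those of the VE-like columns. Among the cultures, Bmp4 stood at 1.98 TP10k in iTSC, where it was found in 81.6% of cells (interval 74.2 to 87.6%). It stood at 0.0246 TP10k in ESC (13.4% of cells) and at 0.0460 TP10k in iXEN (15.6% of cells). Most of the gap between ExE-like cells and iTSC lay in the share of cells in which Bmp4 was found. The mean among cells with Bmp4 was 3.11 TP10k in ExE-like cells and 2.43 TP10k in iTSC. Epi-like cells and ESC showed the opposite arrangement. They had similar shares of cells with Bmp4, but its mean among those cells was 1.88 TP10k in Epi-like cells and 0.184 TP10k in ESC. Both means were also carried by few cells, with 62.9% of the summed level in the top 10 cells in the Epi-like columns and 93.5% in ESC. Since 3D cells had fewer expressed genes than the cultures, neither comparison gives the fraction of cells that express Bmp4. A lower share with a higher mean among cells with the gene, in ExE-like cells against iTSC, was not particular to Bmp4. The 4 receptors all had it, such as Bmpr1a with 64% and 0.372 TP10k against 92.9% and 0.221 TP10k. Bmp8b did not, at 1.25 against 1.59 TP10k among cells with it.

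The position of a cell in the ExE-like columns did not by itself mark it as Bmp4-positive. Bmp4 was found in 41.1% of the cells led by extraembryonic ectoderm markers, with a mean of 1.37 TP10k. It was found in 14.6% of the 48 cells led by epiblast markers, in 3 of the 30 led by visceral endoderm markers and in 17.6% of the 68 ties.

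Bmp8b, which acts with Bmp4 in germ cell induction, was likewise highest in iTSC and next in the ExE-like columns. Its mean was 0.411 TP10k in the ExE-like columns, with 0.367, 0.363 and 0.508 on plates 3, 4 and 5, and it was found in 32.9% of those cells (interval 28 to 38%). Among ExE-like cells led by extraembryonic ectoderm markers it stood at 0.632 TP10k and was found in 45.4%, against 12.5% of the 48 cells led by epiblast markers and 2 of the 30 led by visceral endoderm markers. The Epi-like columns had 0.00765 TP10k and 1.59% of cells, and the VE-like columns 0.0127 TP10k and 4.44% of cells. In the cultures Bmp8b stood at 1.496 TP10k in iTSC, and 94.3% of iTSC had it (interval 89.1 to 97.5%), more than had Bmp4. It stood at 0.0314 TP10k in iXEN (24.1%) and at 0.00393 TP10k in ESC (8.45%).

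Bmp8a, the neighbouring copy, was high in 1 group only. In iTSC its mean was 0.450 TP10k and it was found in 70.2% of cells. The means of the other groups lay between 0.0305 TP10k in ESC and 0.0625 TP10k in the ExE-like columns, and the ExE-like plate means of 0.0540, 0.0465 and 0.0881 overlapped those of the VE-like columns, 0.0414, 0.0469 and 0.0548. So the ExE-like columns, which held Bmp8b at 0.411 TP10k, had no clear excess of Bmp8a. Summed, the 2 genes stood at 0.474 TP10k in the ExE-like columns and 1.95 TP10k in iTSC, and at 0.0344 to 0.0768 TP10k in the other 4 groups. The region between these genes holds 4 protein-coding genes, and of them Hpcal4, Nt5c1a and Pabpc4 were also highest in iTSC. The share of all genes that were highest in iTSC was not counted, so this cannot be read as a trait of the region. Hpcal4 was at 0.172 TP10k in iTSC (63.8% of cells) and at no more than 0.0164 TP10k in any other group. Nt5c1a was found in 30.5% of iTSC at 0.101 TP10k, in 1.42% of ExE-like cells and in none of the cells of the other 4 groups. Pabpc4 was broad, at 4.13 TP10k in iTSC, 3.23 TP10k in the VE-like columns and 1.27 to 2.24 TP10k in the other 4 groups, and Heyl was found in 1 cell of each group.

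Bmp2 was highest in the endodermal groups, although among the 5 ligands it led in the VE-like columns only. In the VE-like columns it stood at 0.0537 TP10k, with 0.0591, 0.0371 and 0.0659 on plates 3, 4 and 5, and was found in 66 cells (21%, interval 16.6 to 25.9%). The plate shares of 34.2%, 13.1% and 14.4% followed depth more than the plate means did. iXEN had 0.0272 TP10k and 39 cells (27.7%, interval 20.5 to 35.8%). It was found in 1 Epi-like cell and in 0 ESC, which allows a share of up to 2.11%. The ExE-like columns had 0.0106 TP10k, from 14 cells (3.97%), and iTSC had 0.00286 TP10k, from 4 cells (2.84%). Within the ExE-like columns Bmp2 was found in 16.7% of the 30 cells led by visceral endoderm markers and in 1.45% of those led by extraembryonic ectoderm markers. The summed level of 8 parietal endoderm genes was also highest in these groups, at 98.3 TP10k in the VE-like columns and 144.9 TP10k in iXEN against 2.09 to 8.80 TP10k elsewhere, and its part in the Bmp2 level was not tested. Of that list, Sparc, Col4a1, Col4a2, Lama1, Lamb1 and Lamc1 were each found in at least 97.8% of cells of both groups. Plat was found in 58.7% of VE-like cells and 90.8% of iXEN, and Thbd in 0.952% and 1.42%.

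Bmp7, which signals through the same receptors and is known from epithelia of the embryo, divided the groups in another way. It was lowest in the endodermal groups, at 0.00736 TP10k in the VE-like columns and 0.00830 TP10k in iXEN. The other 4 groups lay between 0.0406 TP10k in the ExE-like columns and 0.0611 TP10k in iTSC. The plate means of the Epi-like columns (0.0702, 0.0326 and 0.0360) and of the ExE-like columns (0.0552, 0.0468 and 0.0187) overlapped, and all lay above the VE-like plate means of 0.00645, 0.00599 and 0.00992. It was found in 54.9% of ESC and 56% of iTSC. At similar mean levels it was found in 10.8% of cells in the Epi-like columns and 15.6% in the ExE-like columns.

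**Figure D1:**
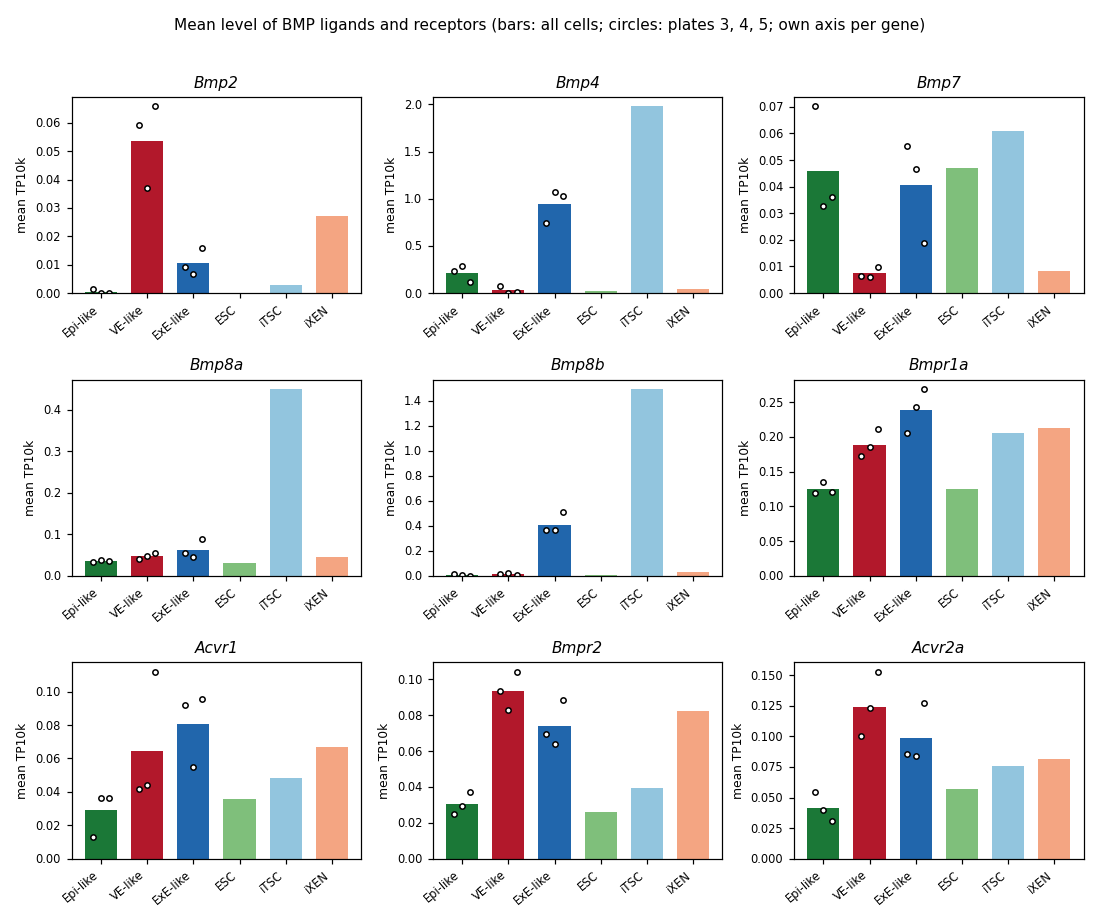
Mean level in TP10k (linear axis from 0, own scale for each gene) of the 9 genes in the 3 blocks of 3D cells and the 3 cultures. Bars show the mean over all cells and open circles the means of plates 3, 4 and 5 in that order. Bmp4 and Bmp8b stand highest in iTSC and next in the ExE-like columns, Bmp8a stands out in iTSC, Bmp2 in the VE-like columns and iXEN, and the 4 receptors differ less between groups.

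Summed over the 5 ligands, the level was 3.99 TP10k in iTSC and 1.47 TP10k in the ExE-like columns, and between 0.106 and 0.299 TP10k in the other 4 groups. Bmp4 made up 64.3% of the ligand sum in the ExE-like columns, 49.6% in iTSC and 70.2% in the Epi-like columns. In ESC the greatest share was that of Bmp7, at 44.4%, and in the VE-like columns that of Bmp2, at 35.1%, followed by Bmp8a at 31%. In iXEN Bmp4 (29%) and Bmp8a (28.7%) were followed by Bmp8b (19.9%) and Bmp2 (17.2%). The sum of the 4 receptors ranged only from 0.227 TP10k in the Epi-like columns to 0.492 TP10k in the ExE-like columns.

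The receptors were found in every group. Bmpr1a, the main type I receptor for Bmp2 and Bmp4, had the highest level of the 4 in all 6 groups. It stood at 0.126, 0.189 and 0.238 TP10k in the Epi-like, VE-like and ExE-like columns. The lowest VE-like plate mean, 0.172, lay above the highest Epi-like plate mean, 0.136, whereas the VE-like and ExE-like plates overlapped. ESC had 0.125 TP10k, iTSC 0.205 and iXEN 0.213, so Bmpr1a was lower in the epiblast-marked groups in both formats. Acvr1, a type I receptor used by Bmp7 and the related ligands, was at 0.0288, 0.0642 and 0.0808 TP10k in the Epi-like, VE-like and ExE-like columns and at 0.0358, 0.0481 and 0.0670 TP10k in ESC, iTSC and iXEN. Its plate means were uneven, from 0.0418 to 0.112 within the VE-like columns.

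Of the type II receptors, Bmpr2 binds BMPs in particular and Acvr2a is shared with activins. Bmpr2 was at 0.0306 TP10k in the Epi-like columns, 0.0934 in the VE-like columns and 0.0737 in the ExE-like columns. Its Epi-like plate means, at most 0.0374, lay below all those of the other blocks. It was at 0.0262 TP10k in ESC, 0.0393 in iTSC and 0.0824 in iXEN. Acvr2a was at 0.0416, 0.124 and 0.0985 TP10k in the Epi-like, VE-like and ExE-like columns and at 0.0571, 0.0757 and 0.0815 TP10k in ESC, iTSC and iXEN. Each of the 4 receptors thus had its lowest 3D level in the Epi-like columns, with a ratio of the VE-like to the Epi-like mean of 1.51 for Bmpr1a, 2.23 for Acvr1, 3.06 for Bmpr2 and 2.99 for Acvr2a.

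**Figure D2:**
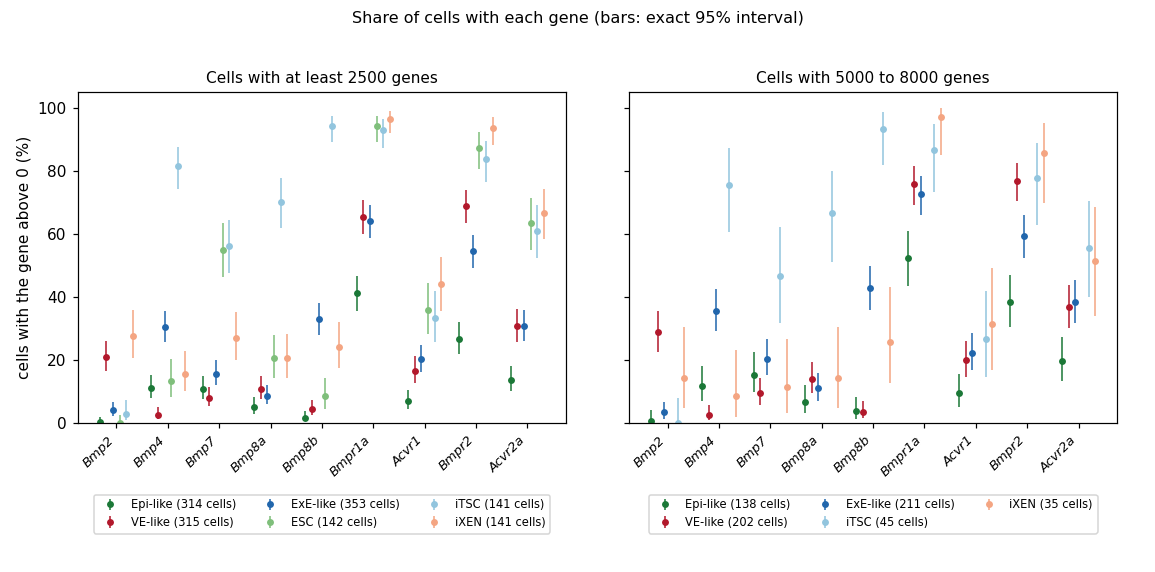
Share of cells (%) in which each gene was found, with exact 95% intervals as bars. The left panel shows all cells kept, and the right panel only cells with 5000 to 8000 expressed genes, without ESC, of which 6 fell in this range. In the right panel the shares of the 4 receptors in iTSC lie closer to those of the ExE-like columns than in the left panel, while Bmp4, Bmp8a and Bmp8b in iTSC stay at 75.6%, 66.7% and 93.3%, above the ExE-like columns at 35.5%, 10.9% and 42.7%.

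With 1 sample per condition no test across samples was possible, and genes were called by size. A gene was tested where 10% or more of the cells had it in 1 or both groups compared. It was called higher or lower where log2(mean TP10k + 0.1) differed by at least 1, with the same sign on plates 3, 4 and 5 where 3D cells entered. The added 0.1 shrinks the differences of genes below that level, which most of the 9 genes were. The share of all tested genes called in a direction is given as background. Comparisons that share a group share its cells.

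Among the 3D blocks, only Bmp4 and Bmp8b were called. In the ExE-like against the Epi-like columns 7 of the 9 genes were tested, and Bmp4 and Bmp8b were higher, by 1.75 and 2.25 on the log2 scale, against a background of 6.53% called higher and 3.78% lower. The ratios of the means without the added 0.1 were 4.49 for Bmp4 and 53.7 for Bmp8b, the latter over 5 Epi-like cells with the gene. In the ExE-like against the VE-like columns all 9 were tested, and Bmp4 and Bmp8b were again higher, by 2.98 and 2.18, with 5.97% of all genes called higher and 4.13% lower. In the VE-like against the Epi-like columns 8 were tested and only Bmp4 was called, lower by 1.23 on the log2 scale, with 8.48% of all genes called higher and 7.54% lower. This call was lost without plate 4, where the difference was -0.91. Bmp2 reached a log2 difference of 0.61 there and was not called, although it was found in 66 VE-like cells and 1 Epi-like cell. With 0.02 added in place of 0.1, Bmp2 (1.85), Acvr2a (1.23) and Bmpr2 (1.17) were called higher there and Bmp7 lower (-1.27), while 27.8% of all genes were called in either direction in place of 16%. The same change called Acvr1 higher in the ExE-like against the Epi-like columns (1.05), and Bmp7 higher (1.15) and Bmp2 lower (-1.27) in the ExE-like against the VE-like columns, where 19.9% and 19.6% of all genes were called.

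Between 3D cells and the culture of the same lineage, the ligands differed and the receptors did not reach the 2-fold limit. In the ExE-like columns against iTSC 8 genes were tested, and Bmp8a and Bmp8b were lower in 3D, by 1.76 and 1.64 on the log2 scale (-1.84 for their sum), with 3.65% of all genes called higher and 2.67% lower. Bmp4 fell just short, at -0.996 (-1.30, -0.83 and -0.89 on plates 3, 4 and 5), and passed at -1.09 without plate 4 and -1.05 without plate 5. In the Epi-like columns against ESC 7 genes were tested and Bmp4 was higher in 3D by 1.31 (1.42, 1.62 and 0.79 on the plates), with 2.49% called higher and 1.92% lower. The call was lost, at 0.77, where log values were averaged over cells. In the VE-like columns against iXEN all 9 were tested and none was called, with 0.906% called higher and 1.48% lower, and the differences ran from -0.22 for Bmp8b to 0.31 for Acvr2a.

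**Figure D3:**
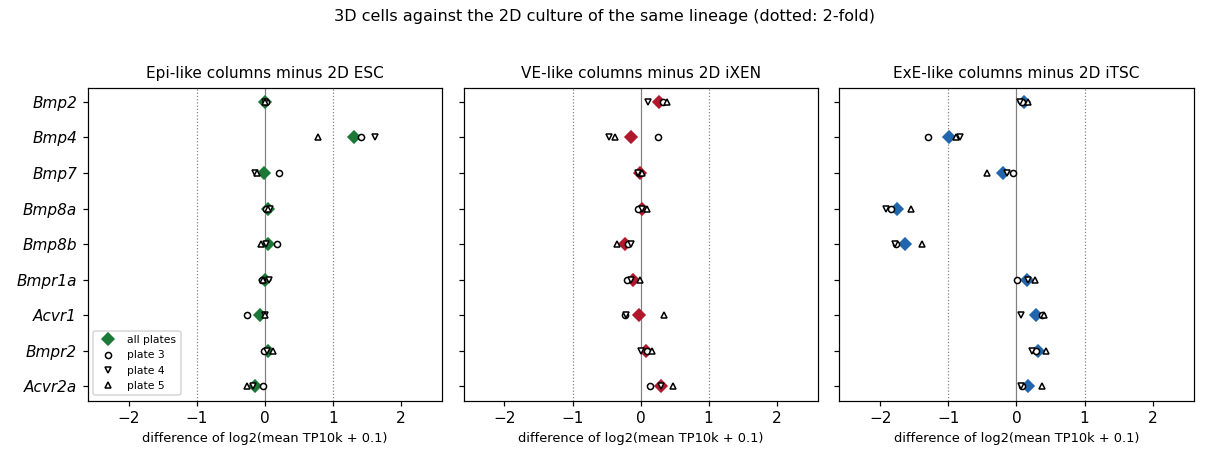
Difference of log2(mean TP10k + 0.1) between each block of 3D cells and the 2D culture of the same lineage for the 9 genes. Diamonds show all plates, open symbols plates 3, 4 and 5, and dotted lines a 2-fold difference. Bmp4 lies above 0 in the Epi-like panel and below 0 in the ExE-like panel, Bmp8a and Bmp8b lie below -1 in the ExE-like panel, and no receptor passes a dotted line.

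Among the cultures, the same 3 ligands separated iTSC from the others. In iTSC against ESC 8 genes were tested, and Bmp4, Bmp8a and Bmp8b were higher by 4.06, 2.08 and 3.94, with 5.69% of all genes called higher and 3.3% lower. In iXEN against iTSC all 9 were tested, and Bmp4, Bmp8a and Bmp8b were lower by 3.83, 1.92 and 3.60 on the log2 scale, with 5.18% called higher and 5.3% lower. In iXEN against ESC all 9 were tested and none was called, with 8.21% called higher and 5.96% lower. Bmp2 was found in 27.7% of iXEN and in no ESC, yet its log2 difference there was 0.35, and that of Bmpr2 was 0.53. With 0.1 added, no receptor was called in any of the 9 comparisons, and the greatest receptor difference was the 0.66 of Acvr2a in the VE-like against the Epi-like columns.

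In the ExE-like columns Bmp4 and Bmp8b were often found in the same cells. There 80 cells held both (22.7%, interval 18.4 to 27.4%), with 23.8%, 22.2% and 21.9% on plates 3, 4 and 5. Bmp8b was found in 74.8% of the cells with Bmp4 (interval 65.5 to 82.7%) and in 14.6% of those without (interval 10.46 to 19.7%). Cells with Bmp4 were somewhat deeper, with a median of 5808 expressed genes against 5243. The gap remained among cells with 5000 to 8000 genes, where the shares were 81.3% and 21.3% at medians of 6081 and 5934.5 genes. In iTSC 75.9% of cells held both, but there Bmp8b was found in 93% of cells with Bmp4 and in all 26 cells without it. No Epi-like cell held both, but Bmp8b was found in only 5 of them. The pair was found in 0.635% of VE-like cells, 2.11% of ESC and 2.13% of iXEN.

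The 6 genes of a trophoblast list were found more often in ExE-like cells with Bmp4. Of the 6 genes listed, Elf5, Eomes, Cdx2, Hand1 and Tfap2c are also among the markers that named the block, and Esrrb is not. Among cells with 5000 to 8000 genes, Hand1, a trophoblast transcription factor that responds to BMP, was found in 65.3% of 75 cells with Bmp4 and 15.4% of those without. Elf5, which maintains trophoblast stem cells, was found in 68% and 25.7%, and Esrrb in 94.7% and 65.4%. The shares were 92% and 47.8% for Eomes, 88% and 57.4% for Tfap2c and 81.3% and 61.8% for Cdx2, but these 3 are among the inducible factors, and the values do not tell transgene from endogenous RNA. The intervals with and without Bmp4 did not overlap for any of the 6 genes. Since the block also held cells led by other marker lists, the shares were set out again, after the data had been seen, among cells led by extraembryonic ectoderm markers. There, with 61 cells with Bmp4 and 69 without at 5000 to 8000 genes, Bmp8b was found in 82% and 29%, Hand1 in 73.8% and 27.5%, Elf5 in 75.4% and 40.6%, Eomes in 98.4% and 66.7% and Esrrb in 95.1% and 72.5%. The intervals of these 5 genes did not overlap, whereas those of Cdx2 (91.8% and 76.8%) and Tfap2c (90.2% and 84.1%) did. The intervals here and above cover counting error among cells only, and their overlap is not a test. Hand1, Elf5, Eomes, Cdx2 and Tfap2c also helped to choose the cells led by extraembryonic ectoderm markers. Their shares there are therefore not independent of that choice, while Bmp8b and Esrrb are not on the marker list. In iTSC, where most cells had the 6 trophoblast genes, the intervals overlapped for all 6, with 26 cells lacking Bmp4. Bmp7 did not share this pattern, since it was found in 21.3% of ExE-like cells with Bmp4 and 19.9% of those without in the same range of genes.

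**Figure D4:**
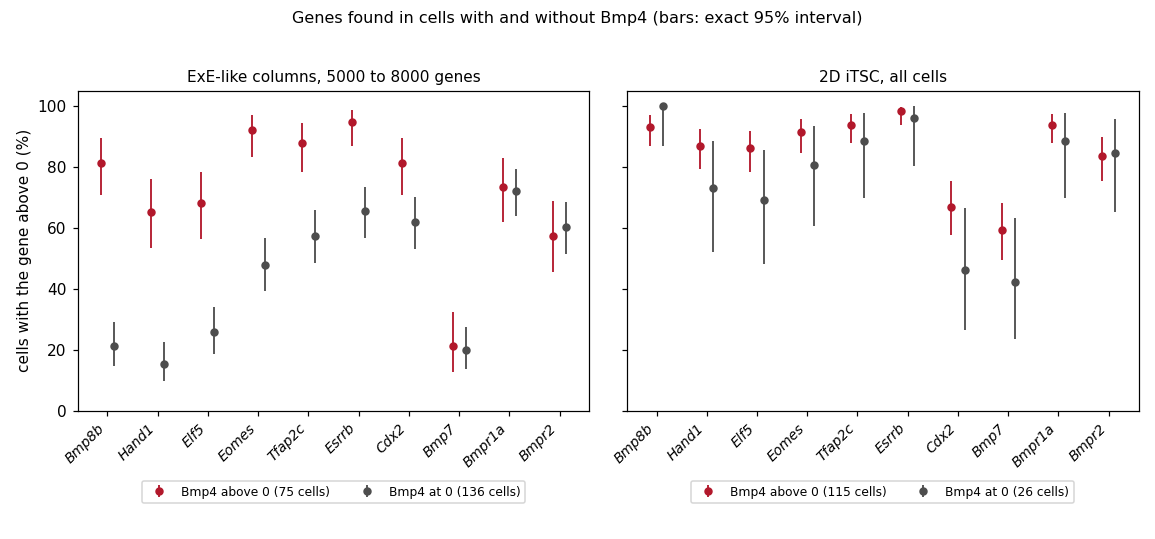
Share of cells (%) with each named gene among cells with Bmp4 (red) and without it (grey), with exact 95% intervals as bars, in ExE-like cells of 5000 to 8000 genes (left) and in all iTSC (right). On the left Bmp8b and the 6 trophoblast genes lie higher in cells with Bmp4, while Bmp7, Bmpr1a and Bmpr2 lie at like shares in both. On the right all intervals overlap.

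Bmp2 and Bmp4 were not found together in the ExE-like columns. None of the cells with Bmp4 had Bmp2, whereas 14 cells without Bmp4 had it (5.69%, interval 3.15 to 9.36%). Of the 14 cells with Bmp2, 4 had Sox17, an endoderm transcription factor (28.6%, interval 8.39 to 58.1%), against 2.95% of the other cells. Within the VE-like columns Bmp2 was set beside visceral endoderm genes. Hhex, a transcription factor of the anterior visceral endoderm, was found in 60.6% of the 66 cells with Bmp2 and 39.8% of those without, but cells with Bmp2 had a median of 6129.5 expressed genes against 5162. Among cells with 5000 to 8000 genes the Hhex shares were 67.2% and 52.1%, and their intervals overlapped. For Sox17, Amn, Lefty1, Nodal and Otx2 the intervals overlapped in both sets of cells.

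A cell that can respond to a BMP needs a type I and a type II receptor. Only the 4 receptors described here were counted. Others were left out, such as Acvr2b, at 0.527 TP10k in the Epi-like, 0.186 in the VE-like and 0.599 in the ExE-like columns. Both kinds were found together in 17.8% of Epi-like cells (interval 13.8 to 22.5%), 54% of VE-like cells (48.3 to 59.6%) and 48.4% of ExE-like cells (43.1 to 53.8%). The share was highest on plate 3, the deepest plate, in each block: 26.7%, 11.2% and 16% on plates 3, 4 and 5 in Epi-like cells, 75.7%, 41.1% and 43.3% in VE-like cells, and 63.9%, 43.6% and 36.8% in ExE-like cells. The cultures had both kinds in 88% (ESC), 87.2% (iTSC) and 94.3% (iXEN) of cells. Among cells with 5000 to 8000 genes the shares were 29% in the Epi-like, 66.3% in the VE-like and 56.9% in the ExE-like columns, and 77.8% of 45 iTSC and 88.6% of 35 iXEN cells, so the Epi-like columns were lowest there too. This range did not make depth equal, since the median number of genes in it was 5667.5 to 6080.5 in the 3D blocks and 7345 to 7435 in iXEN and iTSC. None of the 4 receptors was found in 35.4% of cells in the Epi-like columns, 8.25% in the VE-like columns and 12.5% in the ExE-like columns. This share is bounded by the detection of genes at such low levels. Receptor shares did not follow Bmp4 in the ExE-like columns, where both kinds were found in 53.3% of cells with Bmp4 and 46.3% of cells without.

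At least 1 ligand was found in 26.4% of cells in the Epi-like columns, 39.4% in the VE-like columns and 52.4% in the ExE-like columns, and in 66.2% of ESC, 75.9% of iXEN and all iTSC. A ligand together with both receptor kinds was found in the same cell in 4.78%, 25.4% and 27.2% of cells of these 3 blocks, and in 60.6% of ESC, 73.1% of iXEN and 87.2% of iTSC. In iTSC 73.8% of cells held 3 or more of the 5 ligands, against 8.22% of ExE-like cells and 0.635% of VE-like cells.

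Of the other genes of the BMP pathway, 61 of 62 listed were in the table. They were read by the same size rule and the same backgrounds as above. The BMP-responsive list (Id1, Id2, Id3, Id4, Msx1, Msx2, Hand1 and Gata2) was high in the ExE-like columns and iTSC, but its calls did not follow those of the 5 ligands throughout. In the ExE-like against the Epi-like columns 7 of its 8 tested genes were higher and none lower, with a list median of 1.56 on the log2 scale against 0.07 for all tested genes. However, Hand1 is also among the markers that named the ExE-like columns, and the paper counts Id2 as a trophoblast marker. Id2, an inhibitor of basic helix-loop-helix factors, stood at 8.99 TP10k in the ExE-like columns and 7.42 in iTSC, against 0.384 in the Epi-like columns and 0.153 in ESC. In iTSC against ESC 5 of 8 were higher, and in iXEN against iTSC 1 of 7 was higher (Id1) and 3 were lower (Id2, Msx1 and Hand1). In iXEN against ESC 3 of 6 were higher (Id1, Id2 and Msx2), with a list median of 1.07. None of the 5 ligands was called there, but of the other listed ligands Bmp6 was called higher and Gdf3 lower. In the VE-like against the Epi-like columns Id1 and Msx2 were higher and none was lower of 5 tested. Of the ligands, Bmp4, Gdf3 and Gdf15 were called lower there and Bmp6 higher. In the ExE-like columns against iTSC, where Bmp8a and Bmp8b were lower, Id3 and Msx1 were higher and Hand1 was lower, with a list median of 0.77. Id1 did not follow Bmp4, since its levels were 1.91 TP10k in the VE-like columns and 1.77 in iXEN against 1.21 in the ExE-like columns and 0.668 in iTSC. In the Epi-like columns against ESC, Id1 and Id3 were higher, by 1.47 and 1.69, and in the ExE-like columns against iTSC the Id3 difference was 3.09.

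Of the 9 Smads and intracellular modulators, 1 was called among the 3D blocks. This was Smad6, an inhibitory Smad that BMP signalling itself induces, which stood at 0.280 TP10k in the ExE-like columns and 0.458 in iTSC and at no more than 0.0354 in the other 4 groups. It was called higher in the ExE-like columns against the Epi-like and VE-like columns, by 1.504 and 1.57. Smad7, the other inhibitory Smad, was called only with iTSC, higher than in ESC by 1.202 and above iXEN, whose difference to iTSC was -1.83. Smad1, Smad5 and Smad4, which carry the signal, were called in none of the 9 comparisons. Among secreted modulators, Bmper, which binds BMPs outside the cell, stood at 0.487 TP10k in the VE-like columns and 0.198 in iXEN and at no more than 0.0365 elsewhere. Follistatin (Fst), which binds activin and some BMPs, differed between formats. It was at 0.627 TP10k in the ExE-like columns and 0.00331 in iTSC, higher in 3D by 2.82, and at 0.268 in the VE-like columns and 0.0213 in iXEN, higher in 3D by 1.60. The antagonists Nog and Chrd stayed at or below 0.0454 TP10k in every group.

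Bmp6 was likewise highest in the endodermal groups. It stood at 0.156 TP10k in the VE-like columns (44.8% of cells) and 0.390 in iXEN (91.5%), and at no more than 0.0136 in the other 4 groups, which places it above Bmp2 in both endodermal groups. Gdf3, a TGF-β family ligand of pluripotent cells that also counts as an epiblast marker here, was at 1.62 TP10k in the Epi-like columns and 1.96 in ESC, and was lower in the VE-like and ExE-like columns by 3.69 and 3.87. Of the other receptors, Acvr2b was at 0.527 and 0.599 TP10k in the Epi-like and ExE-like columns, above each of the 4 receptors described here, and at 0.186 in the VE-like columns. Bmpr1b, the other BMP type I receptor, was found in at most 1.42% of the cells of any group. The protease Bmp1, which cleaves BMP antagonists and is no BMP itself, was higher in iTSC than in ESC by 2.55.

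Counting all 61 genes, 11 were higher and 1 lower of 36 tested in the ExE-like against the Epi-like columns, 11 higher and 2 lower of 37 in the ExE-like against the VE-like columns, and 6 higher and 4 lower of 32 in the VE-like against the Epi-like columns. In the same order, the shares of all tested genes called higher and lower were 6.53% and 3.78%, 5.97% and 4.13%, and 8.48% and 7.54%. Against the cultures the counts were 3 higher of 36 for the Epi-like columns, 1 higher and 1 lower of 40 for the VE-like columns, and 5 higher and 2 lower of 41 for the ExE-like columns. The shares of all tested genes were 2.49% and 1.92%, 0.906% and 1.48%, and 3.65% and 2.67%. Among cultures the counts were 9 higher and 1 lower of 42 for iTSC against ESC, 6 and 4 of 41 for iXEN against ESC, and 4 and 8 of 44 for iXEN against iTSC. The shares of all tested genes were 5.69% and 3.3%, 8.21% and 5.96%, and 5.18% and 5.3%.

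Genes with the most similar pattern were ranked by Pearson correlation of mean ln(TP10k + 1) over 12 points, the 3 blocks on 3 plates and the 3 cultures, among 11961 genes. The points share plates and cultures, so the values are descriptions. For Bmp4 the 3 nearest genes were Nat8l (0.998), Hand1 (0.981) and Phf19 (0.979), and for Bmp8b they were Wnt7b (0.994), Perp (0.993) and Mmp9 (0.992). Bmp8a was nearest to Nt5c1a (0.995), its neighbour on the chromosome, with Mir675 (0.991) on chromosome 7 and Apol7e (0.99) on chromosome 15 close behind. All 3 were highest in iTSC, which is 1 of the 12 points. Bmp2 was nearest to Prdm6 (0.994). Over the cells of the ExE-like columns, with the coefficient averaged over plates, Bmp4 was nearest to Elf5 (0.622), Bmp8b (0.622, from 0.51 to 0.678 on the plates) and Morc4 (0.621). For Bmp2 over VE-like cells only Acsm2 reached 0.3, at 0.301, and its plate values ran from 0.057 to 0.704.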

How the data were processed

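Index-sorted cells were processed with Smart-seq2 and Nextera XT and sequenced as single reads of 75 bases. The authors pseudoaligned reads with kallisto to Gencode transcripts of GRCm38, removed mitochondrial, ribosomal and pseudogenes, and summed transcripts to genes with tximport. Per the labels bcl2fastq 2.20 and Seurat were also used. The deposited values are TPM per gene and cell. TPM keeps no read depth, and the authors' filter on reads could not be applied. Here wells with fewer than 2500 genes above 0 were dropped, and TPM was rescaled to 10000 per cell. This left 982 of 1149 wells of the 3D plates (314 Epi-like, 315 VE-like and 353 ExE-like) and 142 ESC, 141 iTSC and 141 iXEN. The range of 5000 to 8000 genes held 138, 202, 211, 6, 45 and 35 cells of these groups. No doublet caller was run. Means, shares, exact 95% intervals (scipy 1.17.1) and a 2-fold rule were computed with Python 3.11.15, pandas 2.3.3 and numpy 2.4.6, since 1 sample per condition allowed no test. A count of 0 is given a limit of 3 counts. Transcript sequences and positions came from a later Gencode release on GRCm38, aligned with Biopython 1.88.

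All members, all genes of the marker, partner, other cell type and pathway lists, and the 3 genes most alike each member (found in at least 25% of cells of a group; over cells only from a correlation of 0.3) could be named. The members and lists were chosen with earlier results of these data known. Alternatives were another depth limit, 5000 to 8000 genes, no rescaling, size factors, log means, equal plate weights, other added constants (0.02 and 0.5), filters of 0 and 25%, 3-fold, detection from 1 TPM, marker-matched 3D cells, summed Bmp8 genes and leaving out each plate. Hjv was not in the table. The 39 wells without values were not used.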

Additional observations from a re-analysis of the deposited data

Results flagged for a closer look

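Differences between 3D cells and the matching culture ran in opposite directions in a pair of lineages, on every plate, for 4 genes, and none of these contrasts between lineages was tested. The share of all genes with such opposite signs was not counted, so the 4 cannot be read as a trait of these genes. Each plate was also set against the same culture mean. Bmp4 was higher in Epi-like cells than in ESC (1.31) and lower in ExE-like cells than in iTSC (-0.996), a gap of 2.31 on the log2 scale. Bmp8a was at 0.05 against ESC (0.023, 0.084 and 0.046 on plates 3, 4 and 5) and -1.76 against iTSC, a gap of 1.81, so its Epi-like side was very small. For the receptors the gaps were small and lay within 2-fold: -0.27 for Bmpr1a between VE-like and ExE-like cells, and for Acvr2a -0.46 between Epi-like and VE-like cells and -0.33 between Epi-like and ExE-like cells. The ExE-like difference of Bmpr1a was only 0.004 on plate 3.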

How the results depend on the processing

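No difference of a single gene changed direction among called values. For the 14 called differences all but 15 of the recomputed values kept the call. With a constant of 0.02 in place of 0.1 the number of the 9 genes called was 5 in VE-like against Epi-like, 4 in ExE-like against VE-like, 4 in iXEN against ESC and 5 in iXEN against iTSC, while the share of all genes called rose from 16 to 27.8%, 10.1 to 19.6%, 14.2 to 26.7% and from 10.48 to 20.3%. With 0.5 it was 0 in VE-like against Epi-like and in Epi-like against ESC and 1 in ExE-like against Epi-like, ExE-like against VE-like and ExE-like against iTSC, with 1.03 to 5.36% of all genes called in these 5 comparisons. It also lost Bmp8a in iTSC against ESC (0.84) and in iXEN against iTSC (-0.80), which left 2 calls in each. The 1 call in VE-like against Epi-like became 0 with unscaled TPM, log means, a filter of 25% or 3-fold, and that in Epi-like against ESC became 0 with log means, 25% or 3-fold. Cells with 5000 to 8000 genes gave 1 call in iXEN against ESC (Bmpr1a, 1.17), and summing Bmp8a and Bmp8b left 1 call in ExE-like against iTSC. Leaving out each plate gave 0 to 1 calls in VE-like against Epi-like and 2 to 3 in ExE-like against iTSC. The share of cells with both receptor kinds ranged over left-out plates from 13.6 to 21.3% in Epi-like, 42.2 to 60.6% in VE-like and 40.3 to 54% in ExE-like cells. Counting only values from 1 TPM it was 65.5% in ESC, 76.6% in iTSC and 88.7% in iXEN. Cells with 5000 to 8000 genes gave 29% in Epi-like, 66.3% in VE-like, 56.9% in ExE-like, 50.0% in ESC (6 cells), 77.8% in iTSC and 88.6% in iXEN. Among marker-matched ExE-like cells it was 54.1%. Bmp4 with Bmp8b was found in 28.9% of ExE-like cells with 5000 to 8000 genes and 32.9% of marker-matched ones. The cause of these moves was not tested. Among all calls the share that was higher moved from 57.7 to 72.9% in ExE-like against iTSC, 63.3 to 52.3% in iTSC against ESC and 49.4 to 60.8% in iXEN against iTSC with unscaled TPM, from 38 to 24.8% in VE-like against iXEN and 57.9 to 69.3% in iXEN against ESC with size factors, and from 56.4 to 26.3% in Epi-like against ESC, 38 to 18.4% in VE-like against iXEN and 57.7 to 32.3% in ExE-like against iTSC with log means. No paired analysis was possible because each condition was 1 sample and no result came from a test. Depth per cell is unknown. A value of 0 can stand for RNA that was missed or RNA that was absent, and these were not told apart.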
